A study of Mus musculus with 9 samples.

Results

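Mitochondrial respiratory chain subunits were compared between cultured skin-derived precursor cells (SKPs) and cells sorted directly from skin. The genes were those with an array symbol beginning with Nduf (assembly factors Ndufaf left out), Sdha to Sdhd, Uqcr, Cox4i, Cox5 to Cox8, or Atp5. They numbered 82 of the 19938 genes tested: 34 of complex I, 4 of complex II, 8 of complex III, 19 of complex IV and 17 of complex V. Ndufa4 and Ndufa4l2 were counted with complex IV, with which their proteins assemble. Each gene was read from its brightest probe set across the 9 arrays, and 65 of the 82 had only 1. The subunits encoded in mitochondrial DNA were not analysed here.

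Expression was measured on 9 arrays, each from a separate preparation of mouse back skin at postnatal day 4. The 4 SKP arrays (replicates 3, 4, 5 and 6) hold floating spherical colonies at primary passage, grown from dissociated neonatal skin; the strain of these mice is not given in the labels. The other 5 arrays (replicates 2, 16, 17, 18 and 20), called sorted, hold freshly isolated cells of Sox2:EGFP mice that were EGFP-positive and CD34-negative and were collected into RNAlater. The EGFP reports Sox2, which in neonatal skin marks the dermal papilla of the hair follicle. Culture, sorting and the kind of cell differ together between the groups, so their effects cannot be told apart. In such bulk samples, fewer cells of a type and less RNA per cell cannot be told apart either.

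Values are log2 RMA levels, so a difference of 1 is 2-fold, and array medians lay between 7.15 and 7.30. A list of 10 dermal papilla markers averaged 9.66 to 11.70 on the sorted arrays and 6.18 to 6.38 on the SKP arrays. Sox2 itself was at 8.24 to 9.25 on the sorted arrays and at 5.78 to 6.41 on the SKP arrays. 8 dermal fibroblast markers averaged 12.71 to 12.88 on the SKP arrays and 10.98 to 12.06 on the sorted arrays, with 5 of the 8 higher in SKPs and 0 lower. Pdgfra was not called, at 11.80 to 12.32 in SKPs and 11.78 to 12.80 on the sorted arrays. Col1a1 on sorted arrays 2 and 20 (13.78 and 13.49) exceeded every SKP array. 10 myeloid markers averaged 6.99 to 8.49 on the SKP arrays and 5.88 to 6.25 on the sorted arrays, with 8 of the 10 higher in SKPs. Markers of keratinocytes (10 of 10), Schwann cells (4 of 4), melanocytes (5 of 6) and pericytes and smooth muscle (5 of 8) were lower in SKPs. The part of these cells in the subunit levels was not tested. Sorted arrays 2 and 20 stood apart from 16, 17 and 18: their papilla averages were 10.31 and 9.66 against 11.47 to 11.70. The 10 keratinocyte markers averaged 10.27 and 11.82 against 9.18 to 9.38, and 6.44 to 6.80 on the SKP arrays. Fibroblast averages were 12.06 and 11.98 against 10.98 to 11.08, and those of 6 endothelial markers 7.57 and 7.95 against 6.56 to 6.69. The part of such cells in the differences among the sorted arrays was not tested. Results are therefore given with and without these arrays.

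Respiratory chain subunits assemble in the inner mitochondrial membrane. Complexes I and II pass electrons from NADH and succinate to ubiquinone, complex III passes them to cytochrome c, and complex IV passes them to oxygen. Complexes I, III and IV pump protons, and complex V, the ATP synthase, uses the return of those protons to make ATP. Most subunits are encoded in the nucleus, and their genes share regulators that include NRF1, the ETS factor GABPA, YY1, the nuclear receptor ESRRA and the coactivator PGC-1alpha.

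RefSeq promoter windows of build GRCm38.p6, from 250 bases before to 50 after the annotated start, matched 67 of the 82 genes. Short motifs of 4 of these regulators were searched on both strands of the windows. NRF1 (GCATGCGC) was found in 10 of 67 (14.9%), against 4.29% of the 15563 tested genes with a window. GABPA (CCGGAAG) was found in 17 (25.4%), against 13.6%. YY1 (AAGATGG) was found in 10 (14.9%), against 7.25%, and ESRRA (AAGGTCA) in 7 (10.4%), against 4.48%. No motif contains another, although matches may share bases, and 34 of the 67 windows held at least 1 of the 4. Other motifs were also looked at and are not given, and a match is a description of letters, not of a bound site.

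The sequences below show the start regions of 4 subunit genes whose levels are described further on. Each runs 5′ to 3′ on the gene's own strand and ends 30 bases after the annotated start, with motif letters in capitals. Atp5j and Sdhd are shown as far as 30 bases past the start of the gene that lies head to head with them.
Ndufc1, chr3:51408926-51409155, minus strand, YY1 from base 23 after the start: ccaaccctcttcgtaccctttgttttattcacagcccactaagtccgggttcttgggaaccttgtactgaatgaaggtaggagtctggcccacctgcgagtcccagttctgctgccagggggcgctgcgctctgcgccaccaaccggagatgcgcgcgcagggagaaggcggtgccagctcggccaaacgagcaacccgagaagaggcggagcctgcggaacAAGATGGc
Atp5j, chr16:84834947-84835154, minus strand, YY1 from base -88 and GABPA from base -61: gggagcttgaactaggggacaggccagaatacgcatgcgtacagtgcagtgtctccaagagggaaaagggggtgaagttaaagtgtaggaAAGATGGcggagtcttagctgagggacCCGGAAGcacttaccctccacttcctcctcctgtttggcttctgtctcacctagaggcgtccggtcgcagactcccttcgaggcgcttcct
Sdhd, chr9:50603820-50603931, minus strand, GABPA on the opposite strand from base -46: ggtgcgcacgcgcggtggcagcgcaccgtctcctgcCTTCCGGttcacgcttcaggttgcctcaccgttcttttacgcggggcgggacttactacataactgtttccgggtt
Cox6a1, chr5:115348929-115349158, minus strand, NRF1 on both strands from bases -162 and -160 and GABPA on the opposite strand from base -16: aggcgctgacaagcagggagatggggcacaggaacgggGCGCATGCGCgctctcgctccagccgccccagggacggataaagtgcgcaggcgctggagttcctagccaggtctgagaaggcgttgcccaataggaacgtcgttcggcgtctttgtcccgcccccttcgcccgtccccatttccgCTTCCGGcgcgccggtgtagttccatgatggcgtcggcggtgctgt
Ndufc1, Atp5j and Sdhd were higher in SKPs and Cox6a1 was lower. Of the 10 subunit genes with the YY1 letters, 6 were called higher in SKPs and 0 lower. Of the 17 with the GABPA letters 6 were higher and 2 lower, of the 10 with the NRF1 letters 0 were higher and 2 lower, and of the 7 with the ESRRA letters 1 was higher. The windows covered 20 of the subunit genes called higher and 5 of those called lower. Over all genes 20.2% were called higher and 16.9% lower. Shares called among all tested genes with each motif are not given here, so these counts show no link between a motif and a direction. The start of Sdhd lies 52 bases from that of Timm8b, an import chaperone of the intermembrane space, and the start of Atp5j lies 148 bases from that of Gabpa.

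Over the 82 subunits together the differences were small and most often toward higher levels in SKPs. By limma's moderated test with Benjamini-Hochberg adjustment over all genes, 25 of 82 subunits were higher at an adjusted p under 0.05, where 20.2% of all genes were. 8 of 82 were lower, where 16.9% of all genes were, and 49 were not called. The median difference was 0.19 (log2, SKP minus sorted), against 0.07 over all genes. Differences above 0 were found for 63 of 82 subunits, against 11976 of the 19938 genes tested. In complex III this held for 5 of 8 and in complex IV for 11 of 19. The differences of the 82 ranged from -0.86 to 1.05. For 74 of the 82 (90.2%) the 95% confidence interval lay within 2-fold in either direction, against 77.7% of all genes. 1 subunit, Ndufc1, was both called and at least 2-fold apart, where 11.7% of all genes were. Every SKP array lay above every sorted array for 17 subunits (18.5% of all genes) and below for 4 (15.5%). With each array centred on its median instead, the counts were 31 higher, where 26.6% of all genes were, and 4 lower, where 14.7% were. Of the 33 calls made with all arrays, 12 were lost when at least 1 single array was left out, as given beside the genes.

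**Figure D1:**
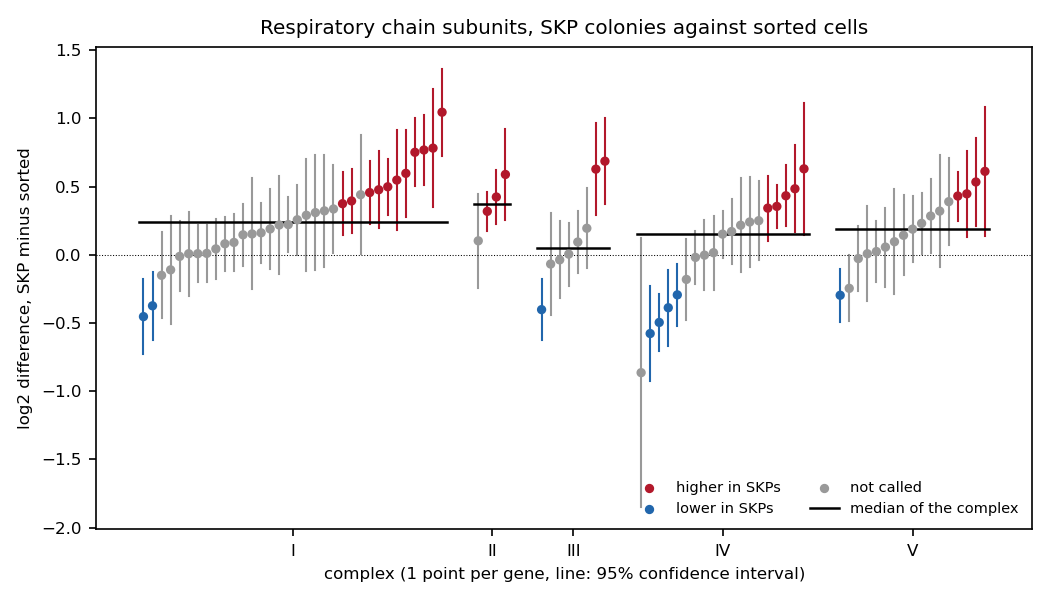
Log2 difference between 4 SKP and 5 sorted arrays for each of the 82 subunits, ordered by size within each complex, with 95% confidence intervals and the median of each complex as a black line. Red points were called higher and blue points lower (limma, adjusted p under 0.05). Complex II has the highest median (0.37) and complex III the lowest (0.05), and the widest interval is that of Ndufa4l2.

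The SKP arrays resembled one another more closely than the sorted arrays did. The median SD of a subunit was 0.088 among the SKP arrays and 0.230 among the sorted arrays, against 0.144 and 0.175 over all genes. The mean over the 82 subunits was 9.57, 9.59, 9.65 and 9.58 on the SKP arrays. On the sorted arrays it was 9.44 (replicate 2), 9.28, 9.34, 9.26 (replicates 16, 17 and 18) and 9.74 (replicate 20). Sorted array 20 was thus above all 4 SKP arrays, and the other sorted arrays were below them. Array 20 lay above arrays 16, 17 and 18 for 69 of 82 subunits (84.1%), against 35.1% of all genes. It lay above the SKP mean for 52, a count whose share over all genes is not given here. It was the highest of the 5 sorted arrays for 66 (80.5%), against 26.1% of all genes. The same array had the highest keratinocyte average and the lowest papilla average of the 5, and the part of those cells in the subunit levels was not tested.

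Without sorted array 20, 44 of 82 subunits were higher (22.9% of all genes) and 6 lower (18.8% of all genes), with a median difference of 0.30. Without arrays 2 and 20 the counts were 48 higher (25.4% of all genes) and 6 lower (21.1% of all genes), with a median of 0.32. Of the 33 subunits called with all arrays, 31 were called again in the same direction without array 20 and 30 without both. Another 19, not called with all arrays, were called when array 20 was left out. The SKP mean was above the mean of arrays 16, 17 and 18 for 69 of 82 subunits. Shares over all genes for the 19 and the 69 are not given here.

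**Figure D2:**
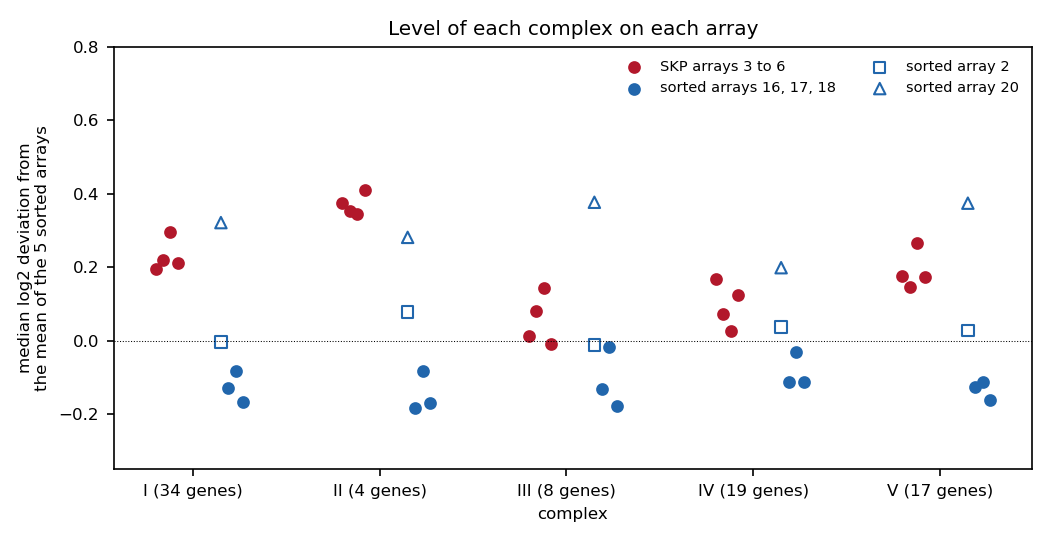
Each point is 1 array: the median, over the subunits of a complex, of the log2 level minus that gene's mean over the 5 sorted arrays. SKP arrays are red, sorted arrays 16 to 18 blue, sorted array 2 an open square and sorted array 20 an open triangle. Array 20 sits at 0.20 to 0.38 in the 5 complexes, above every SKP array in all but complex II, and arrays 16 to 18 sit below 0 in all 5.

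Complex I, the NADH dehydrogenase, had 11 of 34 subunits higher in SKPs (32.4%) and 2 lower (5.88%), with a median difference of 0.24. Over all genes 20.2% were higher and 16.9% lower. Without sorted array 20 the counts were 20 and 2, where 22.9% of all genes were higher and 18.8% lower. Ndufc1, a small accessory subunit of the membrane arm, was at 9.61, 9.77, 9.88 and 9.70 on the SKP arrays. On sorted arrays 2, 16, 17, 18 and 20 it was at 8.81, 8.41, 8.61, 8.51 and 9.13. All SKP arrays were above all sorted arrays, and the level was 2.06-fold higher (95% interval 1.66 to 2.57, adjusted p = 0.000266). The YY1 letters in its start region are printed above.

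The catalytic core of complex I carries the flavin and the iron-sulfur clusters. Among its 6 measured subunits Ndufs8, which holds iron-sulfur clusters near the quinone site, was called higher (16.7%, against 20.2% of all genes). The others had differences of 0.04 (Ndufv1) to 0.34 (Ndufs1) with adjusted p of 0.101 to 0.766. Ndufs8 was at 8.87 to 9.13 on the 4 SKP arrays, and at 8.27, 7.80, 8.13, 7.88 and 8.86 on the sorted arrays. Sorted array 20 lay just under the lowest SKP array, and the groups did not overlap. The difference was 0.78 ± 0.19 (SE, adjusted p = 0.00967), and 0.95 without array 20. Without array 20, Ndufs1, Ndufs3 and Ndufv2 passed the threshold too.

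Accessory subunits of the Ndufa series surround the core and held most of the calls, with 7 of 13 higher (53.8%) and 1 lower (7.69%). Over all genes 20.2% were higher and 16.9% lower. Ndufab1 is the mitochondrial acyl carrier protein, which also serves fatty acid and lipoic acid synthesis. It was at 9.55, 9.57, 9.86 and 9.61 in SKPs and at 8.70, 8.77, 9.04, 8.76 and 9.14 on the sorted arrays, with no overlap and a difference of 0.77 ± 0.12 (adjusted p = 0.000513). Ndufa12, a further accessory subunit, differed by 0.75 ± 0.11 (adjusted p = 0.000469) and Ndufa9, near the quinone site, by 0.60 ± 0.14 (adjusted p = 0.00772). Ndufa5, Ndufa3, Ndufa2 and Ndufa13 were higher by 0.50, 0.46, 0.39 and 0.37, and the Ndufa13 call was lost without SKP array 3 or 6 (adjusted p = 0.0502 and 0.0569). Ndufa1, Ndufa7, Ndufa8, Ndufa10 and Ndufa11 differed by 0.01 to 0.44 and were not called, and Ndufa8, Ndufa10 and Ndufa11 passed without array 20. Ndufa6, an LYR-motif subunit that binds Ndufab1 in the complex, was lower in SKPs. It was at 8.52, 8.76, 8.57 and 8.44 in SKPs and at 8.64, 9.23, 9.08, 9.07 and 9.11 on the sorted arrays. Only sorted array 2 overlapped the SKPs, and Ndufa6 fell by 0.45 on the log2 scale (SE 0.12, adjusted p = 0.0161, and 0.0528 without SKP array 6).

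Fewer calls were made in the Ndufb series, which builds the far end of the membrane arm. Ndufb6 was higher by 0.55 ± 0.16 (adjusted p = 0.024) and Ndufb10 was lower, by -0.37 ± 0.11 (adjusted p = 0.0239), out of 9 measured. This was 11.1% in each direction, against 20.2% higher and 16.9% lower over all genes. The Ndufb10 call was not made with median centring (adjusted p = 0.0515) or without SKP array 3, 4 or 6 or sorted array 16 or 17. The Ndufb6 call was not made without SKP array 4 or 5 or sorted array 16, 17 or 18 (adjusted p up to 0.0706). The other 7 had differences of -0.15 to 0.22, and Ndufb7 and Ndufb9 were called higher without array 20 (adjusted p = 0.033 and 0.0242). Among the remaining 6 accessory subunits, Ndufc2, the partner of Ndufc1, was higher by 0.48 ± 0.13 (adjusted p = 0.0133), and sorted array 20, at 11.24, lay inside the SKP range of 11.20 to 11.38. Ndufs5 lay above every sorted array in SKPs but was not called (0.22, adjusted p = 0.081), and Ndufs4, Ndufs6 and Ndufv3 differed by -0.11 to 0.29. Of these, Ndufs4 passed without array 20, as higher in SKPs (adjusted p = 0.0325).

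Complex II, succinate dehydrogenase, is shared with the TCA cycle and is encoded entirely in the nucleus. 3 of its 4 subunits were higher in SKPs, where 20.2% of all genes were, with a median difference of 0.37. Sdha, the flavoprotein that oxidises succinate, was at 11.15, 11.13, 11.17 and 11.21 in SKPs and at 10.82, 10.87, 10.86, 10.90 and 10.79 on the sorted arrays. Sorted arrays 2 and 20 were narrowly the lowest of the sorted arrays for Sdha. The Sdha difference was 0.32 ± 0.06 (adjusted p = 0.00282). It was not called after quantile normalization over the genes tested (adjusted p = 0.0668).

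Sdhc and Sdhd anchor the enzyme in the membrane and bind ubiquinone. Sdhd was at 10.12, 10.14, 10.20 and 10.07 in SKPs, at 9.28, 9.31 and 9.35 on sorted arrays 16, 17 and 18, and at 9.82 and 9.96 on arrays 2 and 20. The groups did not overlap, and the difference was 0.59 ± 0.15 (adjusted p = 0.011). Sdhc was at 10.04 to 10.13 in SKPs and 9.52 to 9.82 on the sorted arrays, a difference of 0.42 ± 0.09 (adjusted p = 0.00366). Sdhb, the iron-sulfur subunit, differed by 0.10 (95% interval -0.24 to 0.45, adjusted p = 0.644), and was called higher without array 20 (0.24, adjusted p = 0.0409).

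Complex III, the cytochrome bc1 complex, had 2 of 8 measured subunits higher (25%) and 1 lower (12.5%). Among all genes the shares were similar, at 20.2% and 16.9%. Its median difference, 0.05, lay just under the all-gene value of 0.07. The core proteins Uqcrc1 and Uqcrc2 and the Rieske iron-sulfur protein Uqcrfs1 differed by -0.07, 0.00 and -0.04, with 95% intervals between -0.44 and 0.31, and none was called. The calls lay among the 5 small subunits, too few genes to show a pattern. Uqcrq was at 8.52, 8.49, 8.86 and 8.82 in SKPs and at 8.01, 7.80, 7.96, 7.77 and 8.40 on the sorted arrays, 1.61-fold higher (adjusted p = 0.00348). Uqcrb was 1.55-fold higher (adjusted p = 0.00786), again with no overlap. Uqcrh, the hinge protein that meets cytochrome c1, went the other way. It was at 10.52, 10.60, 10.70 and 10.64 in SKPs and at 10.76 on sorted array 2 and 10.99 to 11.24 on the other 4, 1.32-fold lower and below every sorted array (adjusted p = 0.00946). Uqcr10 and Uqcr11 differed by 0.09 and 0.19 and were not called, and Uqcr11 passed without array 20 (adjusted p = 0.0205).

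**Figure D3:**
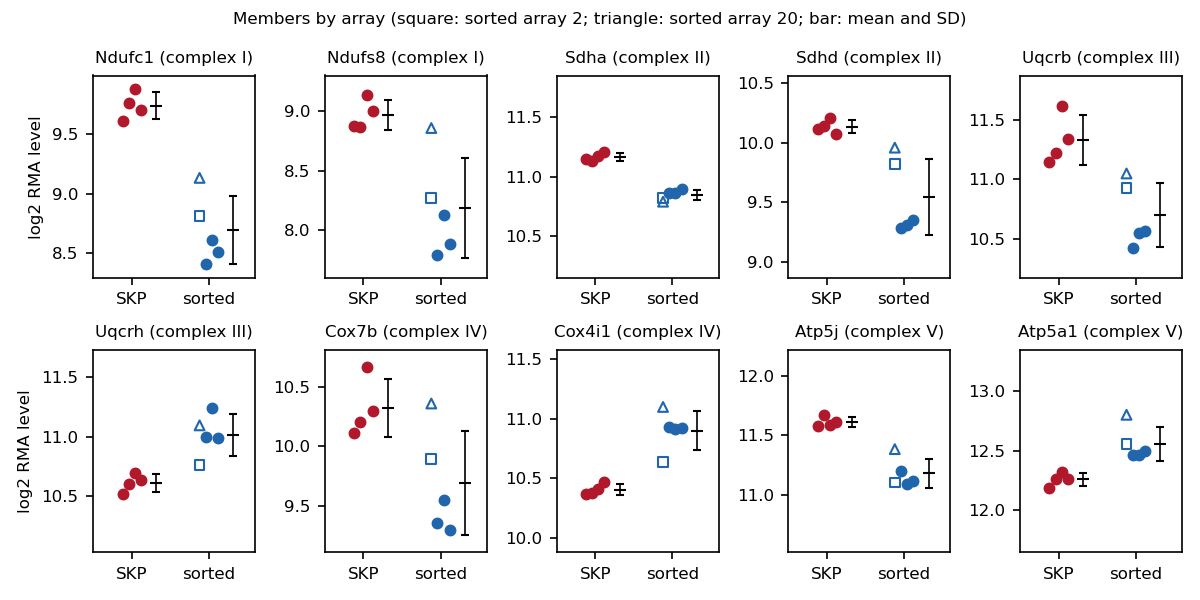
Log2 RMA level of 10 subunits on each array, with the group mean and SD as a bar at the side. All panels span the same number of log2 units. SKP arrays are red, sorted arrays blue, with array 2 as an open square and array 20 as an open triangle. Uqcrh, Cox4i1 and Atp5a1 lie lower in SKPs and the other 7 higher, and the SD among the sorted arrays is the larger in all 10.

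Complex IV, cytochrome c oxidase, had 5 of 19 subunits higher (26.3%) and 4 lower (21.1%), with a median of 0.15. Both shares were near those over all genes, 20.2% and 16.9%. Without sorted array 20, 8 were higher and 2 lower, where 22.9% and 18.8% of all genes were. Among the 11 common subunits, Cox7b, Cox7a2, Ndufa4 and Cox8a were higher by 0.63, 0.48, 0.43 and 0.35. Cox7b was at 10.11, 10.21, 10.67 and 10.30 in SKPs and at 9.36, 9.55 and 9.29 on sorted arrays 16, 17 and 18. Array 20, at 10.36, lay within the SKP range, and array 2 was at 9.89 (adjusted p = 0.0438, and 0.00312 without array 20). The Cox7b call was lost without any single SKP array or sorted array 16, 17 or 18 (adjusted p = 0.0578 to 0.119), and that of Cox7a2 without SKP array 5 or 6 or sorted array 16, 17 or 18 (0.0533 to 0.0631). Cox8a, the widely expressed form of subunit VIII, was at 9.78, 9.66, 9.86 and 9.73 in SKPs and at 9.37, 9.43, 9.31, 9.44 and 9.47 on the sorted arrays, with no overlap (adjusted p = 0.00312).

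Cox4i1 is the common form of subunit IV, the largest subunit of the oxidase encoded in the nucleus. It was at 10.37, 10.37, 10.41 and 10.47 in SKPs and at 10.64, 10.93, 10.91, 10.93 and 11.10 on the sorted arrays. Every SKP array lay below every sorted array, and the level was 1.41-fold lower (adjusted p = 0.00219). Cox6a1, the common form of subunit VIa, fell by 0.39 on the log2 scale (SE 0.12, adjusted p = 0.033), a call not made without SKP array 3, 4 or 6 or sorted array 17, 18 or 20 (adjusted p = 0.0559 to 0.0925) or with median centring (adjusted p = 0.0601). The other 5 common subunits, Cox5a, Cox5b, Cox6b1, Cox6c and Cox7a2l, differed by -0.18 to 0.25 and were not called. Of these, Cox5a, Cox5b and Cox6b1 passed without array 20, as higher in SKPs.

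The remaining 8 genes of complex IV encode forms restricted to certain tissues or conditions, such as muscle, testis or low oxygen. Cox6a2, the muscle form of subunit VIa, was higher at 7.57, 7.36, 7.46 and 7.54 in SKPs, against 7.45 on sorted array 18 and at most 7.19 on the others (adjusted p = 0.0293, and 0.0879 without arrays 2 and 20). This call was also lost without SKP array 3, 5 or 6 or sorted array 2 or 17 (0.054 to 0.0799). Of 12 skeletal muscle markers 6 were also higher and 1 lower, their average was 6.79 to 7.17 in SKPs and 6.69 to 6.88 in sorted cells, and their part in the Cox6a2 level was not tested. Cox6b2, the testis form of subunit VIb, was lower at 6.30 on SKP array 5 and at least 6.88 on the other 3, against 7.57, 7.25, 7.40, 7.13 and 7.51 on the sorted arrays, with no overlap (adjusted p = 0.015, and 0.0523 without arrays 2 and 20). Cox4i2, the form of subunit IV known from lung and from low oxygen, fell by 0.29 on the log2 scale (adjusted p = 0.0438), and the call was not made without SKP array 3, 4 or 5 or sorted array 2, 16, 17 or 20 (adjusted p = 0.0519 to 0.107). Nor was it made with median centring (adjusted p = 0.0855), after quantile normalization (0.1) or without arrays 2 and 20 (0.112). Cox7a1, Cox7b2 and Cox8b averaged under 6.31, the limit of the filter on low levels, where a level cannot be told from background here, and Cox8c differed by -0.02.

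Ndufa4l2, a relative of Ndufa4 known as a target of hypoxia-inducible factor, had the widest spread. It was at 7.68, 7.82, 6.67 and 7.41 in SKPs, at 7.52, 7.77 and 7.49 on sorted arrays 16, 17 and 18, and at 9.39 and 9.13 on sorted arrays 2 and 20. Only the last 2 arrays were set apart, and the difference of -0.86 was not called (95% interval -1.85 to 0.12, adjusted p = 0.158).

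The balance between alternative forms was read as the log2 ratio of their levels within each array, which removes any difference in overall level between arrays. It was compared for 10 pairs with a two-sided exact permutation test over the 126 assignments of arrays and Benjamini-Hochberg adjustment over the 10. The smallest p this design allows is 0.0159. The ratio of Cox6a2 to Cox6a1 was -2.21, -2.25, -2.48 and -2.16 in SKPs and -2.86, -2.79, -3.39, -2.68 and -3.31 in sorted cells, higher by 0.73 (adjusted p = 0.0397 by the exact test). Cox6b2 over Cox6b1 was lower by -0.83, and Cox7a2l over Cox7a2 by -0.66, both at the same adjusted p and with no overlap. Cox7a2l encodes a factor that joins complexes III and IV into supercomplexes.

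Ndufa4l2 over Ndufa4 was lower by -1.30 at that same adjusted p. It was -3.76, -3.75, -4.93 and -4.10 in SKPs and -1.82, -3.50, -3.20, -3.45 and -2.22 in sorted cells. Without arrays 2 and 20 the difference was -0.75. Cox4i2 over Cox4i1 differed by 0.20 (adjusted p = 0.198 by the exact test). Both genes were called lower in SKPs with all arrays, though the Cox4i2 call was lost under several alternatives. Atp5g2 over Atp5g3 differed by -0.26 (adjusted p = 0.0529 by the exact test) and Atp5g1 over Atp5g3 by 0.09 (adjusted p = 0.556 by the exact test). In the pairs of Cox7a1, Cox7b2 and Cox8b the first gene averaged under 6.31 and cannot be told from background. Those ratios therefore cannot show whether the balance changed. None of the 3 was called. A ratio between probe sets shows unequal change, not the share of each form.

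**Figure D4:**
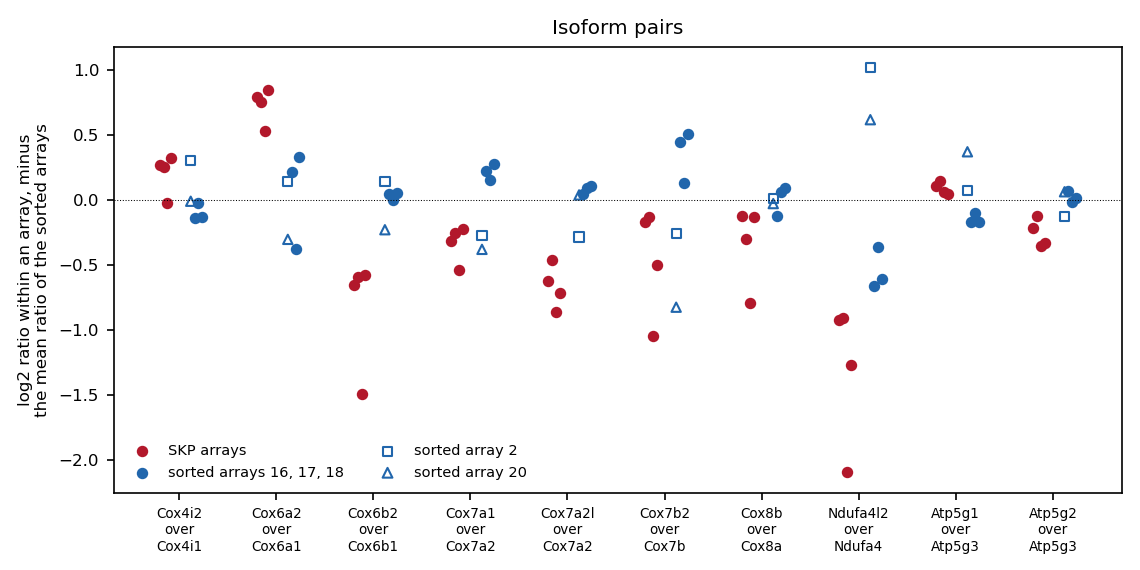
Log2 ratio of 10 pairs of related subunits within each array, minus the mean ratio of the 5 sorted arrays. SKP arrays are red and sorted arrays blue, with array 2 as an open square and array 20 as an open triangle. The groups are apart for Cox6a2 over Cox6a1, Cox6b2 over Cox6b1, Cox7a2l over Cox7a2 and Ndufa4l2 over Ndufa4, and arrays 2 and 20 are highest for the last. Cox7a1, Cox7b2 and Cox8b averaged under 6.31, so their pairs cannot show whether the balance changed.

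Complex V, the ATP synthase, had 4 of 17 subunits higher in SKPs (23.5%) and 1 lower (5.88%), with a median difference of 0.19. Over all genes 20.2% were higher and 16.9% lower. Without sorted array 20, 9 were higher, where 22.9% of all genes were. The peripheral stalk, which keeps the catalytic head from turning with the rotor, had 2 of 4 subunits higher. Atp5j, coupling factor 6, was at 11.58, 11.67, 11.58 and 11.61 in SKPs and at 11.10, 11.20, 11.09, 11.12 and 11.38 on the sorted arrays. The groups did not overlap, and the difference was 0.43 ± 0.08 (adjusted p = 0.00193). Atp5pb, subunit b, was higher by 0.53 ± 0.15 with no overlap (adjusted p = 0.0155). Atp5h and Atp5o, also of the stalk, differed by 0.14 and 0.10 and were not called. Gabpa, whose start lies next to that of Atp5j, was lower in SKPs (-0.37 ± 0.09, adjusted p = 0.00692).

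Small membrane subunits hold ATP synthase dimers and the cristae in shape. Of 5 measured, Atp5md and Atp5j2 were higher (40%, against 20.2% of all genes). Atp5md was at 11.47, 11.73, 11.93 and 11.56 in SKPs, at 10.71, 10.90 and 10.64 on sorted arrays 16, 17 and 18, and at 11.38 and 11.66 on arrays 2 and 20. Its difference of 0.61 rested on a wide spread (SE 0.21, adjusted p = 0.0456), became 0.76 without array 20 (adjusted p = 0.00564), and was not called after quantile normalization (adjusted p = 0.0731) or without any single SKP array or sorted array 16, 17 or 18 (0.0598 to 0.118). Atp5j2, subunit f, was at 10.80 to 10.87 in SKPs and at 10.42, 10.32, 10.28, 10.08 and 10.89 on the sorted arrays (0.45 ± 0.14, adjusted p = 0.0317). The call was lost without any single SKP array or sorted array 16, 17 or 18 (adjusted p = 0.0585 to 0.0755). Sorted array 20 exceeded every SKP array. Atp5mpl (0.39, adjusted p = 0.0572), Atp5k (0.28) and Atp5l (-0.25) were not called. Atp5mpl and Atp5k were called higher without array 20 (adjusted p = 0.00336 and 0.0101).

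The catalytic F1 head had 0 of 5 subunits higher, where 20.2% of all genes were, and 1 lower (20%, against 16.9%). The lower one was Atp5a1, the alpha subunit. Atp5a1 was at 12.19, 12.26, 12.32 and 12.27 in SKPs and at 12.56, 12.47, 12.47, 12.49 and 12.80 on the sorted arrays, 1.23-fold lower with no overlap (adjusted p = 0.0222, and 0.0659 with median centring). The call was lost without SKP array 3 or 6 (adjusted p = 0.0513 and 0.0614). Atp5b, the catalytic beta subunit, differed by 0.06 (95% interval -0.23 to 0.35, adjusted p = 0.768), and Atp5c1, Atp5d and Atp5e by 0.19, 0.01 and 0.02. The 3 genes of the rotor's c ring, Atp5g1, Atp5g2 and Atp5g3, encode the same mature protein and were not called, with differences of 0.32, -0.03 and 0.23. Without array 20, Atp5c1, Atp5g1 and Atp5g3 were called higher (0.26, 0.49 and 0.30, adjusted p = 0.0401, 0.00374 and 0.00957).

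Genes that build or feed the respiratory chain were read from 5 lists. Over all genes 20.2% were higher and 16.9% lower, with a median difference of 0.07. Of 42 assembly factors, 25 were higher in SKPs (59.5%) and 1 lower (2.38%), with a median difference of 0.37, against 0.19 for the subunits. Bcs1l, which inserts the Rieske protein into complex III, was at 8.49, 8.73, 8.56 and 8.37 in SKPs and at 7.44, 7.18, 7.33, 7.31 and 7.63 on the sorted arrays, 2.24-fold higher (adjusted p = 2.22e-05). Tmem126b, of the complex I membrane arm assembly complex, was 2.22-fold higher (adjusted p = 5.4e-05). Nubpl, which delivers iron-sulfur clusters to complex I, was lower by -0.38 (adjusted p = 0.0306) at levels of 6.03 to 6.87, a call lost without SKP array 3, 5 or 6 or sorted array 16, 17 or 18 (0.0641 to 0.0837). Sorted array 20 moved less here: the assembly factor average was 8.02 on it, 7.83 to 7.87 on the other sorted arrays and 8.26 to 8.42 on the SKP arrays.

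Of 77 mitochondrial ribosomal protein genes 38 were higher (49.4%, against 20.2% of all genes) and 1 lower (1.30%, against 16.9%). The median difference was 0.37. Mrps6 was at 10.84 to 11.22 in SKPs and 8.10 to 8.70 on the sorted arrays, 6.06-fold higher (adjusted p = 3.26e-07). Slc5a3, a myo-inositol transporter gene, overlaps Mrps6 over 29138 bases in the RefSeq table, so the transcript behind this value is uncertain. Mrpl47 was 2.54-fold higher (adjusted p = 0.000102), and Mrps9 was lower by -0.25 (adjusted p = 0.0282), a call lost without SKP array 3, 5 or 6 or sorted array 16 or 18 (0.0607 to 0.0766). Of 24 import and carrier genes 11 were higher (45.8%, against 20.2% of all genes) and 0 lower. Without array 20, 20 were higher, where 22.9% of all genes were. Timm8b, the neighbour of Sdhd, was at 9.38, 9.42, 9.65 and 9.51 in SKPs and at 7.81, 8.23, 8.35, 8.10 and 8.68 on the sorted arrays, 2.39-fold higher (adjusted p = 0.000142). Cycs, cytochrome c, which carries electrons from complex III to complex IV, was 2.00-fold higher (adjusted p = 0.00411).

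Of 18 TCA cycle and pyruvate dehydrogenase genes 7 were higher (38.9%, against 20.2% of all genes) and 0 lower. The median difference was 0.19. Pcx, pyruvate carboxylase, which replenishes oxaloacetate, was at 8.15 to 8.34 in SKPs and at 7.18, 6.85, 6.88, 6.80 and 7.77 on the sorted arrays, 2.16-fold higher (adjusted p = 0.00098). Idh3a, a subunit of the NAD-dependent isocitrate dehydrogenase, was higher by 0.61 (adjusted p = 0.0178, and 0.0561 without SKP array 5), with sorted array 20, at 10.01, inside the SKP range.

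Among the 22 regulators of mitochondrial biogenesis and of the mitochondrial genome, 7 were called higher (31.8%, against 20.2% of all genes). Another 4 were called lower (18.2%, against 16.9%), and the middle difference of the list lay near that of all genes (medians 0.08 and 0.07). Slirp, which protects mitochondrial messenger RNA, was 1.93-fold higher (adjusted p = 0.00122), and Tefm, a mitochondrial transcription elongation factor, was 1.46-fold higher (adjusted p = 0.00833). Polg2, the accessory subunit of the mitochondrial DNA polymerase, was at 6.34, 6.60, 6.32 and 6.37 in SKPs and at 8.34, 8.26, 8.39, 8.21 and 7.70 on the sorted arrays, 3.42-fold lower (adjusted p = 7.72e-06). Ppargc1a, the gene of PGC-1alpha, was at 5.56, 5.46, 5.49 and 5.67 in SKPs, at 7.67, 7.67 and 7.95 on sorted arrays 16, 17 and 18, and at 5.91 and 5.94 on arrays 2 and 20. It was called lower (adjusted p = 0.023, and 4.42e-07 without arrays 2 and 20), but the SKP arrays and sorted arrays 2 and 20 all lay under 6.31, where a level cannot be told from background, so the size of the fall is not known. The call was lost without SKP array 3, 4 or 5 or sorted array 16 or 17 (adjusted p = 0.0528 to 0.0557).

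The genes of the 4 factors whose motifs were searched did not move together. Nrf1 was lower in SKPs (-0.42 ± 0.09, adjusted p = 0.0046), as was Gabpa, which with Polg2 and Ppargc1a made up the 4 regulators called lower. Esrra was higher, at 7.70, 7.71, 7.78 and 7.76 in SKPs against 7.32, 7.28, 7.32, 7.43 and 7.46 (0.37 ± 0.07, adjusted p = 0.00194). Yy1 differed by 0.05 ± 0.07 (adjusted p = 0.65).

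**Figure D5:**
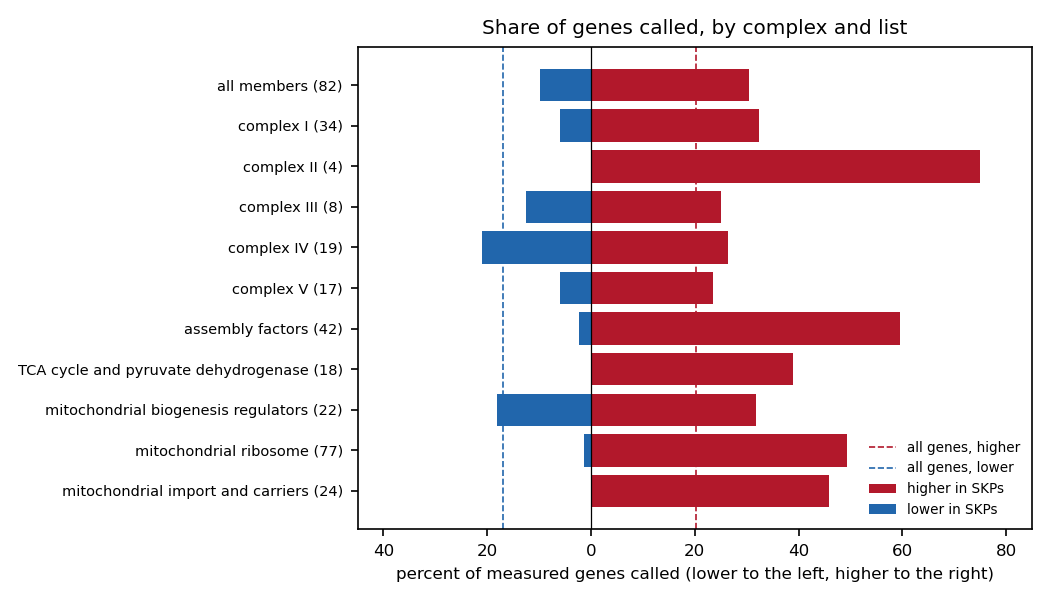
Percent of measured genes called higher (red, to the right) or lower (blue, to the left) in SKPs, for all subunits, each complex and the 5 related lists, with the number of genes in brackets; dashed lines mark the shares over all genes (20.2% higher, 16.9% lower). Complex II rests on 4 genes, and the assembly factors (59.5%) and ribosomal proteins (49.4%) have larger shares called higher than the subunits (30.5%).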

How the data were processed

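The table deposited by the authors holds log2 values from Affymetrix Mouse Gene 1.0 ST arrays, summarised by RMA per probe set. RMA, limma and Affymetrix Expression Console are named in the submitters' processing notes, with no version or setting. No detection calls were used, so whether a low level is above background is not known, and the number of arrays limits the precision. Of 35556 probe sets, 21789 had 1 gene symbol in the platform annotation, 1621 had several and 12146 had none listed. Probe sets with 1 symbol gave 19938 genes, with the brightest probe set taken for each; 6 probe sets of subunit genes with several symbols were not used. The 82 subunits had 107 probe sets, and 79 of the 82 passed the filter on low levels (mean above 6.31).

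The test of SKP minus sorted levels was limma's (version 3.58.1, R 4.3.3; lmFit and eBayes, two-sided), with Benjamini-Hochberg adjustment over all genes and calls at an adjusted p under 0.05. A gene written of as higher or lower was called. Isoform ratios were tested with scipy 1.17.1. The labels describe separate preparations, without saying whether they came from separate litters. The calculation was tested on simulated data. Alternatives were other normalizations, filters and fits, and leaving out arrays. Promoter windows are RefSeq's, of GRCm38.p6; no build is named in the sources used here.

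The subunits, lists, isoform pairs and motifs were chosen with earlier results of these data known, so none is independent evidence of a direction. The naming rule took up to 3 called subunits per complex and direction, all Sdh genes, the isoform pairs, and up to 2 called genes per list and direction. Every other called subunit, the 4 motif factors and the uncalled subunits named were added after their values were seen.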

Additional observations from a re-analysis of the deposited data

Results flagged for a closer look

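An array was singled out where it lay far from the others of its group, by Dixon's test, in 20 of 222 groups tested (9.01%). Chance alone flags about 1 in 20. Sorted array 20 accounted for 8 of them, and it was above the other 4 for Atp5a1 (12.80), Atp5g2 (11.62), Cox7a2l (11.09), Ndufb5 (10.23), Ndufs3 (10.63), Slirp (9.44) and the complex III average (9.93), and below them for Polg2 (7.70). Sorted array 2 was below the other 4 for Ndufa6 (8.64), Ndufs5 (8.76) and the log2 ratio of Cox7a2l to Cox7a2 (1.56), and above them for that of Cox4i2 to Cox4i1 (-3.56).

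Among the SKP arrays 8 values were singled out. SKP array 5 lay above the other 3 for Atp5pb (11.16), Ndufa9 (10.37) and the complex V average (10.93), and below them for Cox6b2 (6.30) and the ratio of Cox6b2 to Cox6b1 (-4.40). This array also had the highest average of 10 myeloid markers, 8.49 against 6.99 to 7.86 on the other SKP arrays, and the part of such cells in these values was not tested. SKP array 4 was high for Pcx (8.34). Atp5o on SKP array 5 (9.97) and Ndufb7 on SKP array 3 (9.36) were singled out because the other 3 arrays held 1 identical value each (9.93 and 9.35), so these gaps are small.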

How the results depend on the processing

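No paired analysis was possible because the SKP and sorted arrays share no replicate numbers. 0 of the calls reversed under any alternative, and 19 of the 33 called subunits kept their call under each alternative run at an adjusted p under 0.05. The count of subunits called higher, 25, became 47 with array weights, 14 at an adjusted p under 0.01 and 48 without sorted arrays 2 and 20. Leaving out 1 array at a time gave 19 to 44, the last without sorted array 20. The count called lower, 8, became 4 with median centring and 2 at an adjusted p under 0.01. With 1 array left out it was 4 to 7, and it was 4 without SKP array 3 or 6 and 5 without SKP array 4 or sorted array 17.
Of the 5 related lists, the TCA cycle count called higher (7) became 12 with array weights, 12 without sorted arrays 2 and 20 and 3 at an adjusted p under 0.01. Over all genes the share called higher was 20.2% with all arrays and 25.4% without arrays 2 and 20. The ribosomal count (38) became 59 with array weights and 23 at an adjusted p under 0.01, and was 57 without arrays 2 and 20. The import count (11) became 21 with array weights, 7 at an adjusted p under 0.01 and 22 without arrays 2 and 20, and 8 to 20 with 1 array left out, the last without sorted array 20. The assembly factor count (25) stayed between 19 and 31 and the regulator count (7) between 5 and 9 over all alternatives. The counts called lower stayed between 0 and 2 in 4 lists and between 3 and 5 for the regulators.

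The 4 called isoform ratios were not called by the exact test with any 1 array left out (adjusted p = 0.0571 to 0.0893), where the smallest unadjusted p is 0.0286 or 0.0357. Without arrays 2 and 20 the test cannot go below 0.0571. Their differences without arrays 2 and 20 were 0.68 (Cox6a2 over Cox6a1), -0.86 (Cox6b2 over Cox6b1), -0.75 (Cox7a2l over Cox7a2) and -0.75 (Ndufa4l2 over Ndufa4). With 1 array left out they were 0.63 to 0.81, -0.91 to -0.61, -0.74 to -0.60 and -1.46 to -1.03, in that order. Cox8b over Cox8a passed after quantile normalization (-0.31, adjusted p = 0.0317 by the exact test), although Cox8b cannot be told from background, and Atp5g2 over Atp5g3 passed on the mean over probe sets (-0.27, adjusted p = 0.0317 by the exact test). The cause of these changes was not tested.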

Other observations

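The 17 subunits with several probe sets were compared across those probe sets within the same arrays. Whether such probe sets read shared sequence was not tested, so their agreement is not independent evidence. In 15 of them all probe sets differed between the groups in the same direction, and the exceptions, Cox6c and Ndufb11, were not called. Ndufc1 differed by 1.05 on the probe set used and by 0.82 on its other one, and Atp5pb by 0.53 and 0.34. The 3 probe sets of Atp5md gave 0.61 each, and the 6 of Atp5l gave -0.25 to -0.32. The RefSeq table names a pseudogene of 9 subunit genes, among them the called Atp5pb, Ndufa12, Ndufab1 and Uqcrh, so these values may include signal from near-identical sequence, which was not tested.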
